A study of Saccharomyces cerevisiae with 2 samples.

Results

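The nuclear pore complex is the channel through which proteins and RNA pass between the nucleus and the cytoplasm of yeast. The 34 genes described here encode its subunits, the nucleoporins. The genes were chosen by name from the known composition of the budding yeast pore and not by their measured values. Earlier results of these data were known at the time of that choice. All 34 genes were found among the 6692 gene identifiers counted. They fall into a scaffold of 12 genes, 9 genes listed as FG subunits, for the phenylalanine-glycine repeats that most of them carry, 4 membrane subunits, 5 subunits of the nuclear basket and 4 subunits of the cytoplasmic face. RNA was sequenced from 2 libraries, replicates 1 and 2 of the Saccharomyces cerevisiae strain yJL59a, in 1 group. Each culture of 50 mL reached an OD660 of 0.2 in methionine-containing synthetic medium before methionine was washed out. The washed cells were then grown in synthetic medium without methionine before harvest, and both libraries are labelled as methionine-depleted. Both libraries shared every allele: the strain is a W303 derivative labelled MATa that carried ade2-1 and can1-100 together with ura3-1, trp1-1, his3-11,15 and a mutant leu2 allele, and had the fluorescent reporter mCherry under the methionine-repressed MET3 promoter at CDC20 (CDC20::MET3pr-mCherry::URA3) and GFP under the same promoter at CWC23 (CWC23::MET3pr-GFP::KanMX). There was no second condition or strain in these libraries, so levels were compared between genes and between replicates, and no test between conditions was possible.

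Scaffold nucleoporins form rings that line the pore membrane, and membrane nucleoporins hold those rings in the nuclear envelope. FG repeats fill the channel with unfolded chains, which bind transport receptors of the importin and exportin family, and which are grouped by the residues around each FG as GLFG, FxFG or plain FG. The basket reaches into the nucleus, where it meets chromatin and maturing mRNA, and the cytoplasmic subunits take part in the release of mRNA after export. The study from which these libraries come used binding of the basket protein Mlp1 to mark chromosomal regions at the pore.

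The libraries held 34052011 and 35367508 counts. Levels between genes are given as FPKM, the count per kilobase of coding sequence and per 1000000 counts of the library, with the mean and SD of both libraries (n = 2), and a level is placed among all genes by the percentage of 6005 protein-coding genes that lay lower. Genes that mark mating type went against the MATa label: the 5 a-specific genes lay between 4.49 FPKM (STE2) and 12.0 FPKM (STE6), and the 4 alpha-specific genes between 230 FPKM (STE3) and 2401 FPKM (MF(ALPHA)1). They are therefore called the libraries labelled MATa.

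The mRNAs of the pore subunits were present at intermediate levels. Each of the 34 was counted in both libraries, from 861 counts for NUP42 in replicate 2 to 10414 counts for SEC13 in replicate 2, and together they held 0.365% and 0.349% of all counts. Their median level was 39.0 FPKM in replicate 1 and 38.2 FPKM in replicate 2 (38.6 ± 0.545), which lay above 44.3% of genes, against a median of 46.0 ± 1.49 FPKM for all 6005 genes. Of the 34 subunits, 12 (35.3%) lay above the median gene, where 50.0% of all genes lie by construction. Levels ran from 19.9 ± 0.680 FPKM for MLP2 to 327 ± 3.31 FPKM for SEC13, a ratio of 16.4 ± 0.726. On the log2 scale the SD over the subunits was 0.92, and over all genes it was 2.41.

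**Figure D1:**
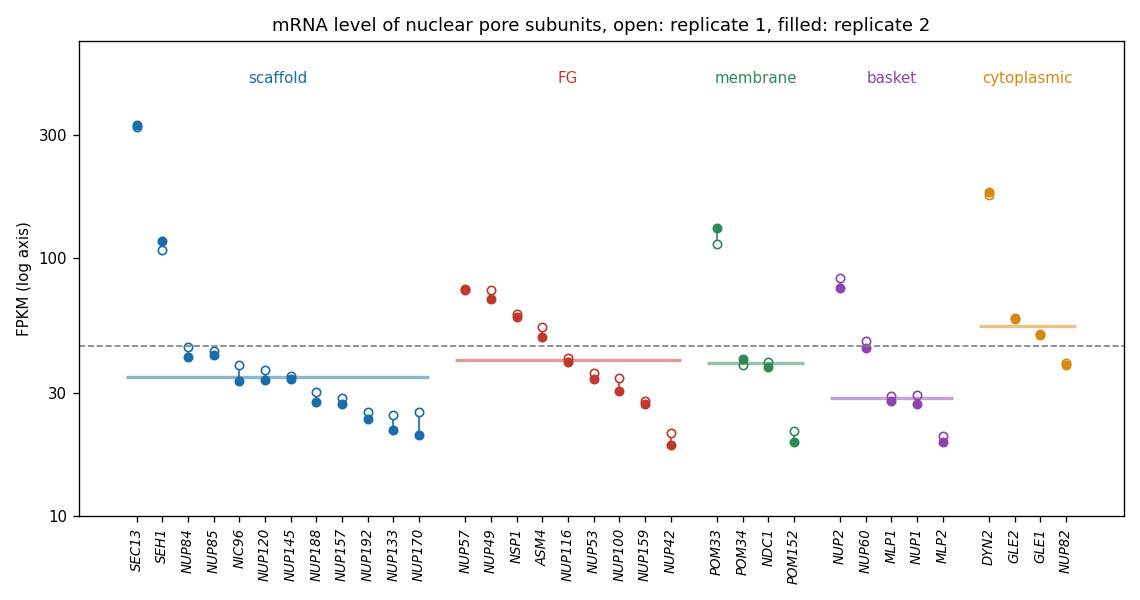
FPKM of each of the 34 subunits on a log axis, by group and ordered by mean within a group, with replicate 1 as open and replicate 2 as filled circles. Coloured bars give the group medians and the dashed line the median of all genes (45.9 FPKM), above which 12 of the 34 subunits lie.

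The groups overlapped in level. The medians were 54.6 ± 0.150 FPKM for the cytoplasmic subunits, 40.5 ± 1.03 FPKM for the FG subunits, 39.2 ± 0.0211 FPKM for the membrane subunits, 34.8 ± 1.66 FPKM for the scaffold and 28.7 ± 1.12 FPKM for the basket. Genes above the median of all genes numbered 3 of 4 in the cytoplasmic group, 4 of 9 in the FG group, 1 of 4 in the membrane group, 2 of 12 in the scaffold and 2 of 5 in the basket. These medians were sensitive to division by length. As CPM, counts per 1000000 counts with no division by length, the scaffold median lay above 70.7% of genes, the FG median above 68.3%, the basket above 67.4%, the membrane group above 59.6% and the cytoplasmic group above 56.6%, so that the cytoplasmic group changed from the highest position to the lowest.

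The outer ring, or Y complex, coats the membrane on both faces of the pore. Its most abundant mRNA was SEC13 (YLR208W, chrXII:559551-560444), a propeller protein that also builds the outer cage of COPII vesicles, which leave the endoplasmic reticulum. SEC13 stood at 325 FPKM in replicate 1 and 329 FPKM in replicate 2, above 90.2% of genes. SEH1 (YGL100W, chrVII:313234-314283), a related propeller shared with the SEA complex of the vacuole, stood at 108 and 117 FPKM (112 ± 6.46). The SEC13 values were the highest of all 34 subunits in both libraries, and did not overlap those of SEH1 (ratio 2.92 ± 0.138).

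The 5 subunits of the Y complex that no other complex shares were lower and close to each other. NUP84 (YDL116W, chrIV:251566-253746), which sits in the stalk of the Y, had 45.3 and 41.3 FPKM, and NUP85 (YJR042W, chrX:514055-516289), the partner of SEH1, had 44.0 and 42.4 FPKM. These ranges overlapped, and NUP85 was higher than NUP84 in replicate 2 only. NUP120 (YKL057C, chrXI:330856-333969), an arm of the Y, had 36.9 and 33.7 FPKM. NUP145 (YGL092W, chrVII:337906-341859), whose precursor cuts itself into an N-terminal GLFG protein and a C-terminal scaffold protein, had 35.1 and 34.1 FPKM. NUP133 (YKR082W, chrXI:592825-596298), the tip of the stalk, was the lowest at 24.6 and 21.6 FPKM. From NUP133 to NUP84 the range was 1.87-fold. None of the 5 lay above the median gene, and SEC13 exceeded their median 9.23 ± 0.603 times and SEH1 exceeded it 3.17 ± 0.357 times. By CPM, with no division by length, SEC13 had 292 ± 2.96, SEH1 118 ± 6.78 and the median of these 5 was 96.7 ± 2.90.

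In the inner ring, which ties the outer rings to the membrane and to the channel, the 5 mRNAs spanned 1.57-fold and all lay below the median gene. NIC96 (YFR002W, chrVI:150016-152535), the adaptor that anchors the channel subunits, had 38.7 FPKM in replicate 1 and 33.5 FPKM in replicate 2. NUP188 (YML103C, chrXIII:62582-67549) and NUP192 (YJL039C, chrX:368748-373799), the large related solenoid proteins of the ring, had 30.3 and 27.8 FPKM and 25.3 and 23.9 FPKM, so NUP188 was higher in both libraries, without overlap (ratio 1.18 ± 0.0268). The paralogs NUP157 (YER105C, chrV:367838-372013) and NUP170 (YBL079W, chrII:75259-79767), membrane-binding subunits of the inner ring, had 28.7 and 27.3 FPKM and 25.4 and 20.6 FPKM. NUP157 exceeded NUP170 in both libraries, by 1.13 times in replicate 1 and 1.32 times in replicate 2, and the ratio was 1.02 by free coding length, the part of a gene that no other open reading frame overlaps.

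The trimer of NSP1, NUP49 and NUP57, which NIC96 anchors in the central channel, was higher than its anchor. NUP57 (YGR119C, chrVII:728046-729671) had 76.3 FPKM in replicate 1 and 75.3 FPKM in replicate 2, and NUP49 (YGL172W, chrVII:180700-182118) had 75.7 and 69.7 FPKM. NSP1 (YJL041W, chrX:365784-368373), which also belongs to the Nup82 complex on the cytoplasmic face, had 61.1 and 59.3 FPKM. By whole coding length NUP57 and NUP49 overlapped in range and NSP1 was 0.829 ± 0.0317 of NUP49. By free length NSP1 was 1.10 ± 0.0422 times NUP49, and NUP57 was 1.23 ± 0.0608 times NUP49 and higher in both libraries, so no order within the trimer is given. The whole trimer spanned 1.26-fold. Its median was 2.02 ± 0.0851 times the level of NIC96 and 2.60 ± 0.0574 times the median of the inner ring, and by free length 2.88 ± 0.231 and 4.15 ± 0.236 times. These ratios were sensitive to division by length. By CPM the trimer had a median of 123 ± 1.16, against 91.0 ± 9.20 for NIC96 and a median of 117 ± 4.31 for the inner ring.

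The repeats themselves were read from the coding sequences of the R64 genome, as RefSeq annotates it. FG occurred 47 times in NUP116 (20 of them GLFG), 45 times in NUP100 (11 GLFG), 33 times in NSP1 (19 FxFG), 29 times in NUP42, 28 times in NUP159, 18 times in NUP49 (8 GLFG), 17 times in NUP1 (13 FxFG), 16 times in NUP57 (9 GLFG), 15 times in NUP145 (7 GLFG) and 12 times in NUP2 (11 FxFG). The other 24 subunits had fewer than 10, and NUP60 had none. The stretch of 50 codons with the most repeats of its class is shown for 6 of these genes, on the coding strand and 5′ to 3′, with each FG-encoding codon pair in capitals, since the repeats distinguish these subunits and their classes. The group names and the repeat counts do not coincide, because NUP1 and NUP2 are listed with the basket and NUP145 with the scaffold. NUP116 and NUP100 show the GLFG class, NSP1 and NUP2 the FxFG class, and NUP42 and NUP159 plain FG.
NUP116 (chrXIII:365380-365529, minus strand): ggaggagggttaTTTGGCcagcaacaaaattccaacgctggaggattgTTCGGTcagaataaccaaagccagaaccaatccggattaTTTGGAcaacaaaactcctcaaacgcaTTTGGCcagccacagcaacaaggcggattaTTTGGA
NUP100 (chrXI:311195-311344, plus strand): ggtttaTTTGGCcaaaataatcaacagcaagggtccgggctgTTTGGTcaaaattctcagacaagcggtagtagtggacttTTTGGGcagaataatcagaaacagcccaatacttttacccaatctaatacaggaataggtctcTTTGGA
NSP1 (chrX:366727-366876, plus strand): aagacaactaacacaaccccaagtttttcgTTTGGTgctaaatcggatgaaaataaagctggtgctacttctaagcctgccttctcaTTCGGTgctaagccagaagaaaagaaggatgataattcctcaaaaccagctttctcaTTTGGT
NUP2 (chrXII:798243-798392, plus strand): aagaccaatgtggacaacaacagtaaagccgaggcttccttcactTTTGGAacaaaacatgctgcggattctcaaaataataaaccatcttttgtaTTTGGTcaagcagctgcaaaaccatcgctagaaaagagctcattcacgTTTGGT
NUP42 (chrIV:844487-844636, minus strand): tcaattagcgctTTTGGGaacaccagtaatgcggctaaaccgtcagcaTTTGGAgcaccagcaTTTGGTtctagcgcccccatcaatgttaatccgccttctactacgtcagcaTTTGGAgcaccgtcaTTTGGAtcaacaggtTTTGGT
NUP159 (chrIX:147057-147206, minus strand): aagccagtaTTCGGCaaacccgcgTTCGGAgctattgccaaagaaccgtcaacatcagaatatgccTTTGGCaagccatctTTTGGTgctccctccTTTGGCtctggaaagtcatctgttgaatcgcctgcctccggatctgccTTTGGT

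Of the GLFG genes, NUP116 (YMR047C, chrXIII:363364-366705), which binds the export factor Gle2, had 41.2 FPKM in replicate 1 and 39.8 FPKM in replicate 2. Its paralog NUP100 (YKL068W, chrXI:310199-313078) had 34.5 and 30.6 FPKM. Their proteins were identical at 42.1% of aligned residues, and NUP100 stood at 0.803 ± 0.0477 of NUP116, lower in both libraries without overlap. ASM4 (YDL088C, chrIV:298417-300003) and NUP53 (YMR153W, chrXIII:564435-565862) are paralogs that link the inner ring to the membrane and carry few repeats, with 6 and 4 FG. ASM4 had 54.4 and 49.7 FPKM and NUP53 had 35.9 and 34.2 FPKM. The ratio of NUP53 to ASM4 was 0.674 ± 0.0199 by whole coding length, and it turned to 1.28 when only the 52.9% of NUP53 free of other reading frames was used as its length, so no order between this pair is given.

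The plain FG genes of the cytoplasmic filaments were the lowest of the FG group by whole coding length, though by free length the means of both lay above that of NUP100. NUP159 (YIL115C, chrIX:144327-148709), a docking site for the RNA helicase Dbp5, had 27.9 and 27.2 FPKM. NUP42 (YDR192C, chrIV:843569-844861), which binds Gle1 and had the highest density of repeats with 6.74 FG per 100 residues, had 21.1 and 18.8 FPKM. As a description across the 34 genes, which share both libraries, the density of FG and log2 FPKM had r = -0.03 and rho = 0.15. NUP42 also had the smallest part of its coding sequence free of other frames, as described below, so that its level depends on which length is used.

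Reading frames that overlap a gene can change its count, because a dubious frame in the annotation used for counting takes reads or makes them ambiguous. Of the 34 subunits, 17 overlapped a frame of at least 100 codons between start and stop on either strand, against 25.2% of all genes, and none overlapped another RefSeq gene. These shares are not matched for length, since the subunits had a median of 2208 coding bases and all genes 1197. The FG group held 8 of the 17, the basket 4, the scaffold 3, and the membrane and cytoplasmic groups 1 each. NUP42 was free over 39.8% of its coding length, NSP1 over 50.4%, NUP53 over 52.9% and NUP49 over 67.0%, with NUP57 between NUP53 and NUP49. For 7 subunits (NUP2, NUP42, NUP53, NUP116, NUP159, NDC1 and GLE2) the count files also listed an identifier with the same or an adjacent systematic number that has no R64 coordinates, such as YDR193W beside NUP42 with 10 and 7 counts, and YER107W-A beside GLE2 with 250 and 237 counts. Whether these identifiers lie over the subunits, and whether reads were lost to them, was not tested. For NSP1, NUP49, NUP57 and NUP170, which also overlapped a frame, no such identifier was listed.

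Dividing the same counts by the free length gives the level that would hold if no read in the overlaps had been counted. NUP42 was then 50.2 ± 4.04 FPKM in place of 21.1 and 18.8 FPKM, NSP1 119 ± 2.48, NUP159 38.4 ± 0.679, NUP57 133 ± 1.26, NUP49 108 ± 6.40 and NUP53 66.3 ± 2.34 FPKM. The median of the FG group was 52.7 FPKM, above 51.2% of genes treated in the same way. The number of subunits above the median gene was 15 of 34 on that scale.

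**Figure D2:**
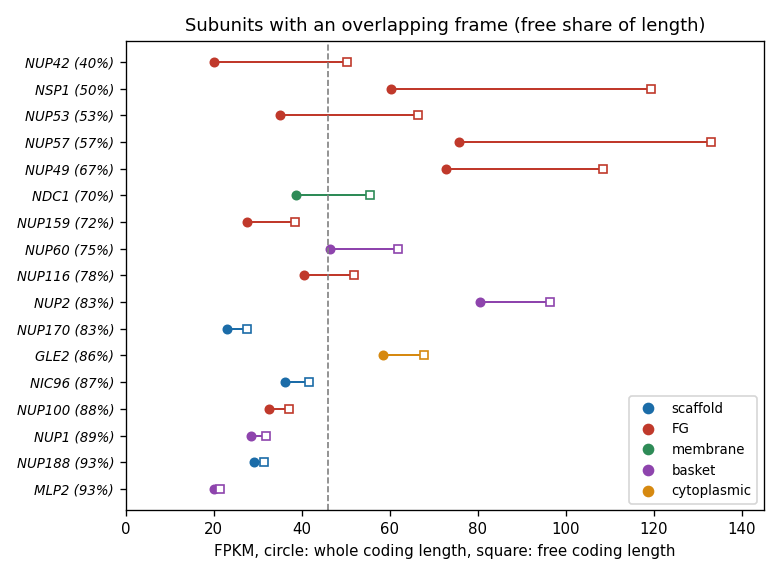
The 17 subunits that overlap another reading frame, with FPKM by whole coding length as circles and by the length free of other frames as squares, coloured by group. Names give the free share of the coding length, which was lowest for NUP42 (39.8%), and the dashed line is the median of all genes by whole length.

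The membrane subunits spread on both sides of the median gene. POM33 (YLL023C, chrXII:97997-98836), a membrane protein that helps to distribute pores in the envelope, had 114 FPKM in replicate 1 and 131 FPKM in replicate 2. POM34 (YLR018C, chrXII:178707-179606) had 38.7 and 40.6 FPKM, and NDC1 (YML031W, chrXIII:214189-216156), which inserts both pores and spindle pole bodies in the envelope, had 39.7 and 37.8 FPKM. POM152 (YMR129W, chrXIII:527804-531817), the large subunit whose luminal part rings the pore, had 21.4 and 19.4 FPKM. As FPKM, POM33 was above and POM152 below the others in both libraries, and POM34 and NDC1 overlapped. POM34 and NDC1, which bind POM152, stood at 1.95 ± 0.201 and 1.90 ± 0.0665 times its level. By free length NDC1 was 2.72 ± 0.0951 times POM152, and POM34 was 0.715 ± 0.0489 of NDC1. By CPM, with no division by length, the mean of POM152 (82.1 ± 5.66) was above those of NDC1 (76.3 ± 2.59) and POM34 (35.7 ± 1.22). POM33 exceeded its paralog PER33 2.02 ± 0.0975 times, and the pair shared 25.7% of aligned residues.

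Among the basket subunits, NUP2 (YLR335W, chrXII:797430-799592), an FxFG protein that takes part in recycling the importin alpha Srp1, was highest at 83.9 and 77.0 FPKM. NUP60 (YAR002W, chrI:152257-153876), which tethers Nup2 and the Mlp proteins to the pore, had 48.0 and 44.9 FPKM. NUP1 (YOR098C, chrXV:507948-511178), an FxFG protein that binds importins and the membrane, had 29.5 and 27.4 FPKM. The basket filaments themselves are long coiled-coil proteins. MLP1 (YKR095W, chrXI:619805-625432) had 29.2 and 27.9 FPKM and its paralog MLP2 (YIL149C, chrIX:63028-68067) had 20.4 and 19.5 FPKM, the lowest mean of the 34 by whole length, 0.0217 FPKM under NUP42, from which it could not be told apart. MLP1 exceeded MLP2 by 1.43 ± 0.00464 times, in both libraries without overlap, and their proteins were identical at 30.2% of aligned residues. NUP1 and MLP1 could not be ordered, since NUP1 was higher in replicate 1 and MLP1 in replicate 2.

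On the cytoplasmic face, DYN2 (YDR424C, chrIV:1319387-1319841), the dynein light chain that joins Nup82 complexes, had 176 FPKM in replicate 1 and 182 FPKM in replicate 2, and was second to SEC13 in both libraries. GLE2 (YER107C, chrV:373448-374545), an mRNA export factor bound to Nup116, had 58.4 and 58.6 FPKM. GLE1 (YDL207W, chrIV:88248-89864), which activates Dbp5 with inositol hexakisphosphate, had 51.1 and 50.5 FPKM. NUP82 (YJL061W, chrX:320016-322157), the core of its complex, had 39.3 and 38.6 FPKM. These 4 genes had no overlap in range and kept 1 order in both libraries. Within the Nup82 complex, DYN2 was 4.59 ± 0.159, NSP1 1.54 ± 0.0141 and NUP159 0.707 ± 0.00426 times the level of NUP82. By free length NSP1 was 3.06 ± 0.0279 and NUP159 0.985 ± 0.00593 times NUP82, and DYN2 and NUP82, which no other frame overlaps, were as before. By CPM, with no division by length, DYN2 (49.9 ± 1.15) was lower than NUP82 (83.5 ± 0.974), and NUP159 (121 ± 2.14) was higher than NUP82.

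By whole coding length, neighbours in the order of all 34 levels often could not be told apart. Of the 33 neighbouring pairs, 22 kept their order in both libraries and 11 had values that did not overlap. SEC13 and DYN2 at the top were separate from each other and from the rest, whereas POM33 and SEH1 overlapped. From NUP116 down to NUP53 (40.5 to 35.1 FPKM) no neighbouring pair was free of overlap, and NUP133 and NUP170, or NUP42 and MLP2, could not be ordered.

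Of the 34 subunits, 4 also serve other machines and were set beside the genes of those machines. SEC13 was 3.72 ± 0.0614 times SEC31 (87.8 ± 2.34 FPKM), its partner in the COPII cage, and of the 8 other COPII genes 6 lay above the median gene, from 19.3 FPKM (SEC16, which marks exit sites) to 542 FPKM (SAR1, the GTPase that starts the coat). SEH1 was 6.45 ± 0.865 times the median of the 6 other SEA complex genes, which regulate TORC1 and of which 0 lay above the median gene. DYN2 was 10.8 ± 0.852 times the median of 9 dynein and dynactin genes, of which 0 did. This ratio was sensitive to division by length, since DYN2 has 279 coding bases and the list a median of 1485. By CPM, DYN2 had 49.9 ± 1.15 and the median of the list was 38.6 ± 1.69. NDC1 was 2.08 ± 0.0887 times (2.87 ± 0.0346 by free length) the median of 8 spindle pole body genes, of which 0 did, from SPC110 at 12.7 FPKM to CNM67 at 25.4 FPKM. The ratios of SEC13 and SEH1 were sensitive to division by length too. Without it SEC13 was lower than SEC31, with 9884 and 10414 counts against 11214 and 12094. By CPM, SEH1 had 118 ± 6.78 and the median of the SEA list was 51.9 ± 1.61.

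How widely the partner lists were spread depended on the measure. The log2 SD was 1.03 over importins and exportins, 1.48 over the Ran cycle and 1.64 over mRNA export, against 0.92 over the subunits. The highest-to-lowest ratios were 12.2, 11.7 and 25.6, against 16.4. For pore assembly and envelope genes the SD was 1.73 and the ratio 64.8, and for basket partners 0.489 and 1.93. The 15 importins and exportins had a median of 33.2 FPKM and 6 lay above the median gene, with SRP1, the importin alpha, at 138 ± 3.50 FPKM and KAP95, its beta partner, as the median gene of the list. All 8 genes of the Ran cycle, which gives transport its direction, lay above it, from the exchange factor SRM1 at 70.3 ± 4.32 FPKM to the GTPase GSP1 at 821 ± 75.0 FPKM. Of 16 mRNA export genes 12 did, with the helicase DBP5 at 119 ± 7.79 FPKM, 2.35 ± 0.135 times its activator GLE1, and the receptor MEX67 at 58.1 ± 5.71 FPKM. The 13 genes of pore assembly and envelope shape had a median of 41.5 FPKM with 6 above the median gene, from BRL1 at 9.88 ± 1.01 FPKM to the membrane-curving YOP1 and RTN1 at 640 ± 45.1 and 631 ± 11.9 FPKM. The 3 basket partners had a median of 33.8 ± 0.429 FPKM, and the SUMO protease ULP1 stood at 54.3 ± 2.59 FPKM. The medians of the partner and shared-complex lists were sensitive to division by length. By CPM they ran from 30.4 ± 2.12 for the spindle pole body genes to 251 ± 0.195 for the COPII genes. The Ran cycle had a median of 146 ± 3.85 CPM and the pore subunits 96.4 ± 3.76 CPM.

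**Figure D3:**
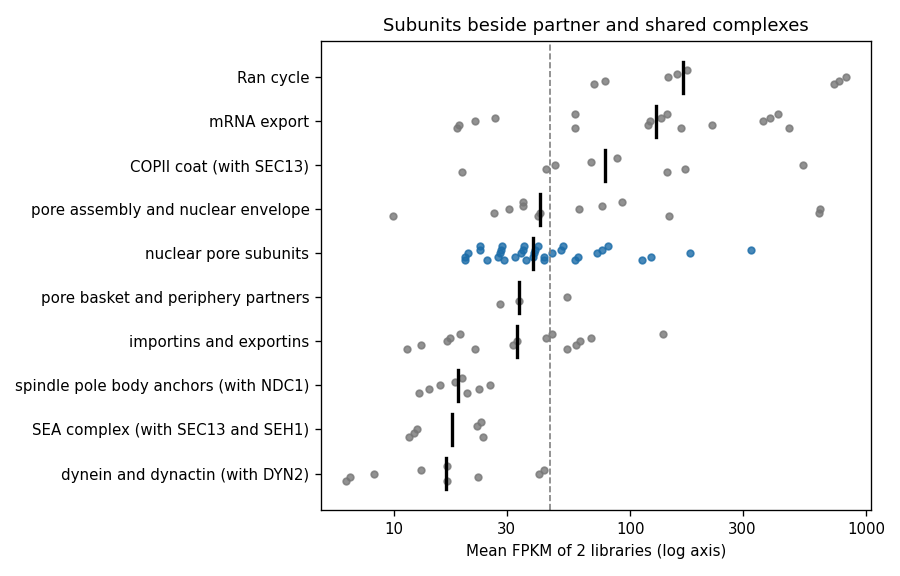
Mean FPKM of 2 libraries on a log axis for the 34 pore subunits (blue) and for 9 lists of partner and shared-complex genes (grey), 1 point per gene, with list medians as black bars and the median of all genes as a dashed line. The medians run from 16.5 FPKM for dynein and dynactin to 167 FPKM for the Ran cycle, with the pore at 38.6 FPKM.

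Long genes had low levels. Coding lengths ran from 279 bases (DYN2) to 5628 bases (MLP1), and 28 of 34 subunits were longer than the median gene of 1197 bases. Among the 6 shorter subunits 5 lay above the median level, among the other 28 there were 7, and none of the 8 subunits over 4000 bases did, the highest of these being NUP188 at 29.1 FPKM. Over the 34 subunits, log2 FPKM and coding length had r = -0.70 and rho = -0.75, and over 5757 genes of at least 1 FPKM r = -0.27 and rho = -0.28. Without division by length the relation had the other sign (r = 0.40 and rho = 0.44 with log2 CPM), and 30 of 34 subunits lay above the median gene by CPM. These are descriptions across genes, which share libraries and the division by length, and genes are not independent replicates.

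**Figure D4:**
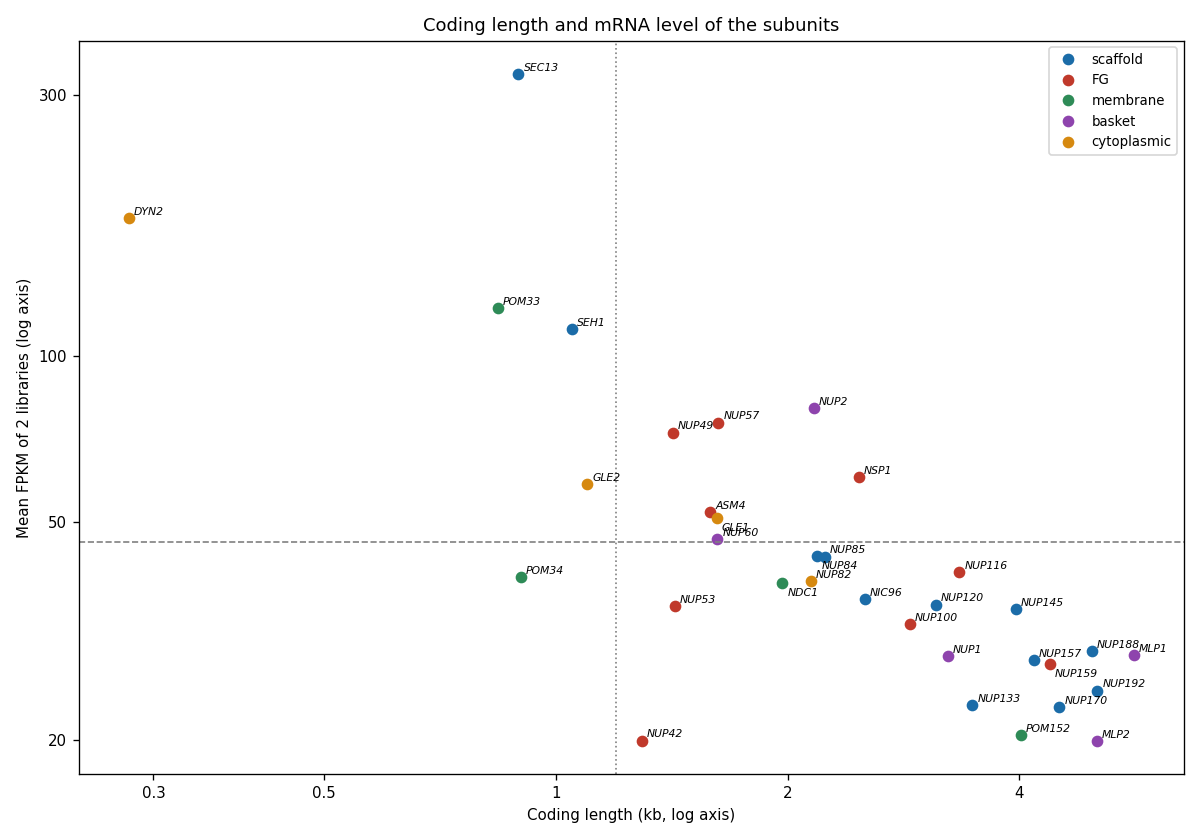
Mean FPKM of 2 libraries against coding length, both on log axes, for the 34 subunits coloured by group. The dashed line is the median level (45.9 FPKM) and the dotted line the median coding length (1197 bases) of all genes, and the 8 subunits over 4000 bases all lie under the dashed line.

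Codon use did not follow level in the same way as over the genome. The codon adaptation of a gene, on a scale where 1 is the codon use favoured by ribosomal protein genes, had r = 0.57 and rho = 0.43 with log2 FPKM over the 5757 genes. Over the subunits r was 0.39 and rho 0.01, and without SEC13, whose adaptation of 0.331 was the highest of the 34, r was 0.04. The FG group had a median adaptation of 0.158, above 17.9% of genes, and the scaffold 0.205, above 60.2%. Within the channel trimer, NUP49 and NUP57 had 0.144 and 0.149, and NSP1 had 0.229. MLP1, lower in level than the trimer, had 0.224, and POM33, higher in level, had 0.245. POM34 had the lowest value, 0.122. The difference between these relations was not tested.

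The promoters, read from the genome as 250 bases before the start codon and 50 after it, were searched on both strands for the letters of 6 motifs. The letters of Reb1, a general regulatory factor that opens promoter chromatin (TTACCCG), occurred in 8 of 34 subunit promoters (23.5%) and in 7.10% of 5985 promoters. Those of PAC (GATGAG) and RRPE (AAAATTTT), which mark genes of ribosome biogenesis, occurred in 11 (32.4%) and 6 (17.6%), against 20.4% and 9.02%. Those of the cell cycle box MCB (ACGCGT) occurred in NUP116 and DYN2, 5.88% against 3.07%. Of the motifs of sulfur metabolism, whose genes respond to methionine, Cbf1 (CACGTG) occurred in NUP1 and NUP82, 5.88% against 2.91%, and Met31/Met32 (TGTGGC) in 0 subunits, against 7.84%. No matches of different motifs overlapped in these promoters. A match is a run of letters and not a measured site, and the list was searched with 6 motifs without a test.

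The 8 stretches with Reb1 letters are shown because this motif was found at the highest share relative to all promoters. They are given on the coding strand of each gene, 5′ to 3′, with the match in capitals, as TTACCCG or in reverse as CGGGTAA.
SEC13 (chrXII:559304-559383, plus strand): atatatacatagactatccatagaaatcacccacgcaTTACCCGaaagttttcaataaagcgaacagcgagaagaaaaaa
NUP116 (chrXIII:366834-366913, minus strand): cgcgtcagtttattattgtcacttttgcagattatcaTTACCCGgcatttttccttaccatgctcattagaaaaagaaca
NUP53 (chrXIII:564246-564325, plus strand): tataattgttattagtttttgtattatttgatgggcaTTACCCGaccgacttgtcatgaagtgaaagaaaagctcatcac
NIC96 (chrVI:149839-149918, plus strand): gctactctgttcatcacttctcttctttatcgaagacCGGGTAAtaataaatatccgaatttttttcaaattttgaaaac
NUP157 (chrV:372118-372197, minus strand): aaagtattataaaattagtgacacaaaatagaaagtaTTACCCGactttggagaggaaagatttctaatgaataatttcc
NUP188 (chrXIII:67639-67718, minus strand): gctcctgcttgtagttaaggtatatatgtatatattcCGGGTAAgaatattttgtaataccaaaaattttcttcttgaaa
GLE1 (chrIV:88079-88158, plus strand): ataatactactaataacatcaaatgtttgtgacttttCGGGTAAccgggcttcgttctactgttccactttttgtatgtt
MLP2 (chrIX:68238-68317, minus strand): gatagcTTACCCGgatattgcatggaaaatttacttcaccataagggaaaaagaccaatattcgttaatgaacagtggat

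The 8 matches began between 244 and 132 bases before the start codon, with the reverse letters in NIC96, NUP188 and GLE1. Levels did not set these genes apart. Their median was 35.6 FPKM, that of the other 26 subunits 39.3 FPKM, and that of all 425 genes with the letters 63.8 FPKM. They include SEC13, the highest mRNA of the pore, and MLP2, which was among the lowest.

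The subunit genes lay on 12 of the 16 chromosomes. NUP60 was 0.675 kb and NIC96 1.389 kb from a centromere, the only members within 10 kb of one, and none lay within 30 kb of a chromosome end. NSP1 and NUP192 were neighbours on chromosome X, pointing at each other with 374 bases between them, and NSP1 exceeded NUP192 2.45 ± 0.0456 times by whole and 4.86 ± 0.0906 times by free coding length. By CPM, NSP1 had 149 ± 3.09 and NUP192 124 ± 4.90. Of the 34 subunits, 15 had a divergent neighbour upstream, which was higher than the subunit in 6. The share over all genes was not computed. The paralogs MLP1 and MLP2 each faced a paralog of another family: MLP1 lay upstream to upstream with RPL40B (2104 ± 41.4 FPKM) and MLP2 with RPL40A (2837 ± 34.9 FPKM), ribosomal protein genes whose near-identical copies leave the share of each uncertain. GLE2 and NUP157 lay on either side of MAM1, a meiotic kinetochore gene at 0.665 ± 0.0270 FPKM.

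The 2 libraries differed little over the subunits. The median absolute log2 difference between replicates was 0.08 over the subunits and 0.11 over 5791 genes with at least 10 counts in each library. No subunit had fewer than 861 counts in a library, so comparisons with these genes are not matched for depth. Replicate 2 was higher by over 1.2-fold for 6.34% of those genes and for 0 of 34 subunits. Replicate 1 was higher by over 1.2-fold for 11.8% of genes and for 1 of 34 subunits, NUP170, whose 25.4 and 20.6 FPKM gave a log2 difference of -0.30 (95% counting interval -0.37 to -0.23). By sign, replicate 1 was higher for 28 of 34 subunits and for 58.1% of genes. The exceptions were POM33, SEH1, POM34, DYN2, SEC13 and GLE2, which include the 4 subunits over 100 FPKM.

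The counting interval left out 0 for 20 subunits, with 18 higher in replicate 1 and, in replicate 2, POM33 (log2 difference 0.20) and SEH1 (0.12). These intervals cover counting error only and not the difference between cultures, so with 2 libraries they are no test of a change. The same count was not made over all genes, so the 20 of 34 cannot be read against a share. All 34 differences lay between -0.58 and 0.47, the limits of the middle 95% of genes. The median difference was -0.07 over the subunits and -0.03 over the genes.

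**Figure D5:**
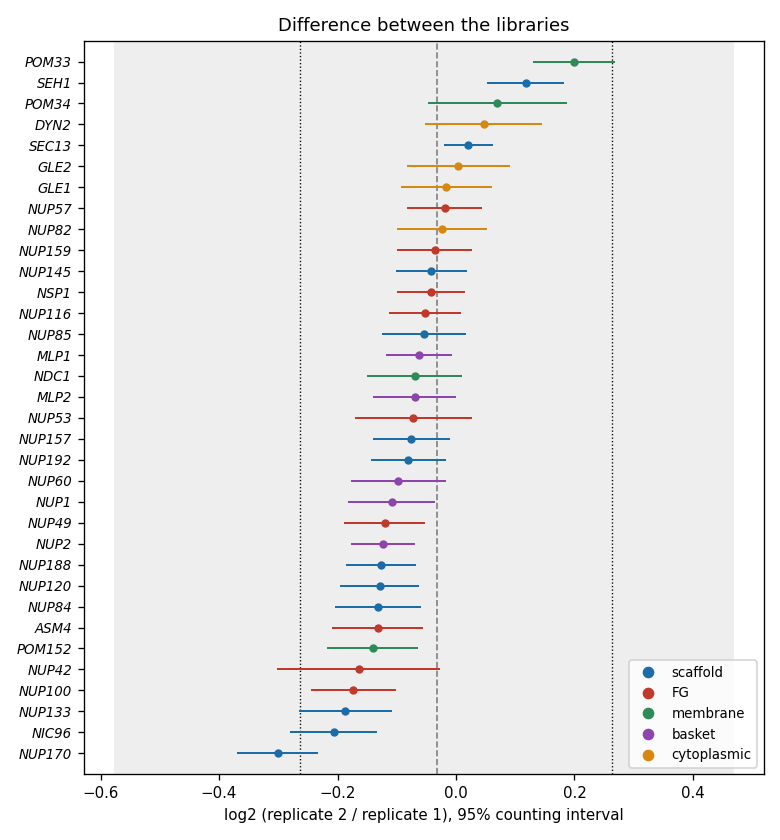
Log2 ratio of replicate 2 to replicate 1 in FPKM for each subunit, with the exact 95% counting interval as a bar and colour by group. The grey band holds the middle 95% of 5791 genes, the dashed line is their median (-0.03) and dotted lines mark 1.2-fold, which NUP170 (-0.30) passes.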

How the data were processed

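RNA from 2 libraries was analysed, captured as mRNA on beads and sequenced as read pairs after NEBNext Ultra II library preparation, and the study calls its samples biologically independent. The values the authors deposited are raw counts per gene, although the files are named FPKM: they are whole numbers and sum to 34052011 and 35367508. The submitters' processing notes name sacCer3 and featureCounts 2.0.3. A general software statement of the study lists fastp, BWA and Picard MarkDuplicates for its sequencing data, without saying which of its assays that covers. For the annotation, strand setting and treatment of ambiguous reads the entry is: not given in the sources used here, so antisense genes cannot be separated.

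FPKM was computed as the count per kilobase of merged R64 coding sequence (RefSeq) and per 1000000 counts of the library. Of 6692 identifiers, 687 had no coding length and held 0.291% and 0.302% of counts. They stayed in the totals only. The share of 50-base windows of a coding sequence found elsewhere in the genome or repeated was above 0 for NSP1 (6.52%) and NUP159 (0.138%). The lowest count of a subunit was 861, and intervals (exact binomial, 95%) cover counting error only, since reads carry no molecular identifiers.

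There is 1 group, so no p-value is given, and lists are described by counts and medians. The members and lists were chosen with earlier results of these data known. All 34 members are named, and genes of other lists by their role or as the ends of a list. Alternatives were leaving out a library, free coding length, TPM, CPM, a minimum of 1 FPKM, other list memberships, and scaling with edgeR 4.0.16 (TMM) or DESeq2 1.42.0 size factors. Python 3.11.15, Biopython 1.88 and R 4.3.3 were used, and the steps were tested on simulated data.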

Additional observations from a re-analysis of the deposited data

How the results depend on the processing

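With 2 libraries in 1 group, a spread rests on n = 2. Of 137 recomputed values, 75 stayed within 1 SD of the value given (counts within 1.5 times), 58 moved further and 4 changed direction. Part of the 75 was fixed in advance. With n = 2, leaving out 1 library always keeps an FPKM median or a paralog ratio within 1 SD. Free length leaves a ratio of genes without overlapping frames unchanged. The 75 are therefore no measure of robustness. Dividing by free coding length gave medians of 43.4 (all subunits), 52.7 (FG), 47.5 (membrane), 31.8 (basket) and 59.3 FPKM (cytoplasmic), above 37.6% (scaffold), 51.2% (FG) and 47.6% (membrane) of genes, and paralog ratios of 1.02 (NUP157 to NUP170), 1.28 (NUP53 to ASM4, reversed), 0.713 (NUP100 to NUP116) and 1.33 (MLP1 to MLP2). By the same length, applied to the other ratios after seeing the data, NSP1 to NUP49 was 1.10 (reversed). Using free length only beside identifiers that lack R64 coordinates, chosen after seeing the data, gave medians of 43.2, 52.7, 47.5 and 59.3 FPKM for all, FG, membrane and cytoplasmic subunits, above 46.4%, 53.2%, 49.8% and 57.1% of genes, 39.5% for the scaffold and 33.5% for the basket, and ratios of 1.28 (NUP53 to ASM4, reversed) and 0.627 (NUP100 to NUP116). As TPM, whose sum is fixed, medians were 34.4 (all), 31.0 (scaffold), 36.1 (FG), 34.9 (membrane), 25.6 (basket) and 48.7 (cytoplasmic). Among genes of at least 1 FPKM the same groups lay above 41.9%, 38.5%, 43.4%, 42.4%, 32.0% and 53.9%. By CPM they lay above 66.0%, 70.7%, 68.3%, 59.6%, 67.4% and 56.6%, with 30 subunits over the median gene, and paralog ratios were 0.607 (NUP53 to ASM4), 0.692 (NUP100 to NUP116) and 1.60 (MLP1 to MLP2). Without SEC13 and SEH1 the scaffold median was 31.7 FPKM, above 37.7% of genes. Leaving out 1 library put all subunits above 44.2% to 44.6% and the FG group above 45.7% to 46.0% of genes. Scaling by DESeq2 size factors moved the median replicate difference of all genes from -0.0312 to 0.00134, a reversal, and that of the subunits to -0.0383. With TMM these were -0.000564 and -0.0402. Where no construction is named, the cause was not tested. No paired analysis was possible because there is 1 group.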
